A study of Homo sapiens with 6 samples.

Results

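Notch receptors, their ligands and the DNA-binding protein RBPJ were examined in HEK293T cells given a plasmid that expresses VRTN. They were all probe sets of the array, other than controls, whose annotation names 1 of 10 genes: the receptors NOTCH1, NOTCH2, NOTCH3 and NOTCH4, the ligands DLL1, DLL3, DLL4, JAG1 and JAG2, and RBPJ. All 10 genes were measured, out of 18417 gene symbols on the array, by 12 probe sets, 11 of them assigned to 1 gene. RBPJ had 2 of its own, 8094460 and 8155458, the latter listing no RefSeq transcript of RBPJ. NOTCH2 had 7919095 and shared 7904702 with NOTCH2NLA and NOTCH2NLB, which are near-copies of its 5′ part, so 7904702 cannot be read as NOTCH2 alone. Probe set 7904702 also lists no RefSeq transcript of NOTCH2.

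HEK293T cells descend from human embryonic kidney and express large T antigen of SV40, in both groups alike. The first group received pNTAP-2×flag-VRTN, in which the coding sequence of pig VRTN, a DNA-binding protein tied to vertebral number in pigs, is joined to a flag tag, and the second received the pNTAP-2×flag plasmid with no insert. Each group had 3 arrays of total RNA taken 24 hours after transfection, which the labels call biological replicates. The share of cells that took up plasmid was not given, and a bulk array cannot tell fewer expressing cells from less RNA per cell. Precision is limited throughout by having 3 arrays a group.

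Notch receptors are single-pass membrane proteins that are cut when a Delta-like or Jagged ligand on a neighbouring cell pulls on them. The freed intracellular part enters the nucleus and joins RBPJ, which otherwise sits on its targets with corepressors, and Mastermind coactivators to switch on genes of the HES and HEY families. In the embryo the pathway drives the segmentation clock that spaces the somites, from which vertebrae form, and DLL1, DLL3 and RBPJ are required for it in the mouse.

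RBPJ binds DNA at a core of TGGGAA, and the stretches of 300 bases around annotated gene starts (250 before and 50 after, RefSeq, GRCh38.p14) show which of these genes carry it there. Windows were at hand for 8 of the 10 genes, 12 windows in all, of which 5 belonged to RBPJ. The core was searched on both strands, as TGGGAA or its reverse complement TTCCCA, and 24.0% of 35116 windows of this length held it. Base content differs among windows, with a GC share of 58.7% in the median of all windows. Over the 12 it ran from 35.3% (an RBPJ window) to 79.7% (JAG2), and some RBPJ windows overlap. Among the 12 windows 1, an RBPJ window, held the core, with a match on each strand, and no depletion is read from this count. That window and the one of NOTCH1, the gene whose groups stood apart below, are given with matches in capitals; the first is at chr4:26319496-26319795, plus strand, and the second at chr9:136545999-136546298, minus strand. A match describes the letters and is not evidence of binding, and a window without one says nothing of RBPJ.
RBPJ: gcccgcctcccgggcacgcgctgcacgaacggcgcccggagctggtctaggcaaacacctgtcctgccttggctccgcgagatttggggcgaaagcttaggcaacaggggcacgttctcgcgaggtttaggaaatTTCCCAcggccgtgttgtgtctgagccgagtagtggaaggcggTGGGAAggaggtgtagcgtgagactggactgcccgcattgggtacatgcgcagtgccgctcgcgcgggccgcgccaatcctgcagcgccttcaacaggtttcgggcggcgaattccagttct
NOTCH1: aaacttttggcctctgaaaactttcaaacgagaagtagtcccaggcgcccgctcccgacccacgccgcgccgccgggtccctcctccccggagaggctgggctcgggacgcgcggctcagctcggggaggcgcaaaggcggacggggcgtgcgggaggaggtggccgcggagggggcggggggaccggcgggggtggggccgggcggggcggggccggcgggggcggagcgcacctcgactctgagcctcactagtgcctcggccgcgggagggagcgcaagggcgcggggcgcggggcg

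As a check of the plasmid, the probe set for human VRTN had a log2 signal of 6.18 ± 0.10 (SD, n = 3) with the VRTN plasmid and 5.10 ± 0.11 (SD, n = 3) without it (log2 fold change 1.07, SE 0.086; limma adjusted p = 0.0194). That call was lost without moderation of the variance, after another quantile normalization, and without any single array other than empty vector replicate 1 (adjusted p = 0.0527 to 0.264 over these 5 arrays), and the human probes may not match the pig sequence equally well. The HEK293 genes VIM, LIN28B, PAX2 and NEFL were brighter than the median negative control probe set in all 6 arrays, and NEFM in 1 of 6. That median was 5.36 to 6.13, and all 12 Notch probe sets lay above it in every array but below the 95th percentile of the same controls (10.53 to 11.12), so it marks no detection limit. The bacterial spike controls averaged 10.60 with VRTN against 10.24 without, a log2 difference of 0.35, and what this adds to the differences below was not tested.

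None of the 10 genes passed the test between the groups. In limma, with Benjamini-Hochberg adjustment over all 29183 probe sets and a threshold of 0.05, 0 of the 12 probe sets were called, where 0.0137% of all probe sets were (4, all higher with VRTN, and 0% lower). When the replicate number entered the fit as a replicate block, 0 of the 12 were called against 0.0274% of all. At an unadjusted p under 0.05 there was 1 of 12 (8.33%), NOTCH1, which was higher, against 5.58% of all probe sets, made up of 2.65% higher and 2.92% lower. With the replicate block it was again 1 of 12, NOTCH1, against 11.5%. With VRTN, 6 of the 12 probe sets had a positive and 6 a negative log2 fold change, with a median of -0.018 where that of all probe sets was -0.0049. For 11 of the 12 the 95% interval excluded a change of array signal of 1.5-fold in either direction. The exception was RBPJ probe set 8155458, and with the replicate block its interval (-0.40 to 0.13) excluded it too, which made 12 of 12. These intervals are of signal over all cells, transfected or not. Dim probe sets such as DLL3 (6.44 with VRTN) and DLL4 (6.36) lay near the median of all probe sets (6.43 to 6.47). How far signal follows RNA at such levels was not tested.

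**Figure D1:**
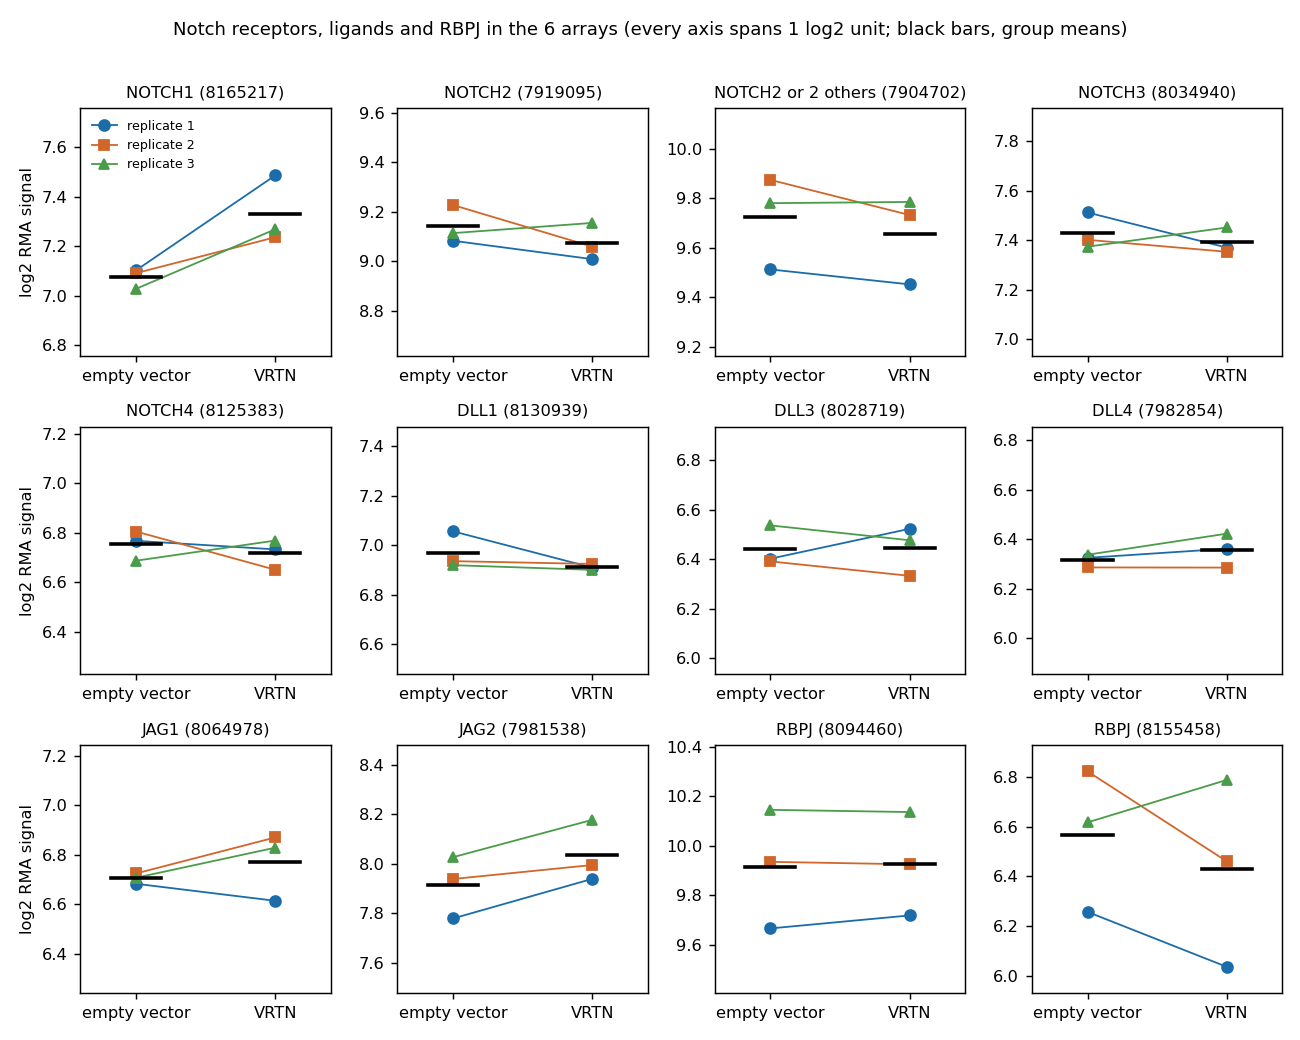
Log2 RMA signal of each of the 12 probe sets in the 6 arrays, with the empty vector at the left and VRTN at the right of each panel, lines joining arrays of the same replicate number and black bars at group means. NOTCH1 is the only panel in which all 3 VRTN arrays lie above all 3 empty vector arrays, and in the panel of RBPJ probe set 8094460 the 3 lines run nearly level and apart.

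NOTCH1, the receptor whose intracellular part is the best studied activator of RBPJ, was the receptor with the largest difference. Its log2 signal was 7.49, 7.24 and 7.27 in VRTN replicates 1, 2 and 3, and 7.10, 7.09 and 7.03 in empty vector replicates 1, 2 and 3. All 3 VRTN arrays lay above all 3 empty vector arrays, with replicate 1 the farthest up. The groups did not overlap in this way for 1 of the 12 probe sets (8.33%), against 11.3% of all probe sets, made up of 5.39% higher and 5.92% lower with VRTN. The log2 fold change was 0.26 (SE 0.084, 95% interval 0.06 to 0.45), or 1.19-fold, and the limma adjusted p was 0.802. The unadjusted limma p was 0.0165 and ranked 595th of 29183. Within same-numbered arrays the difference was 0.38, 0.14 and 0.24. With the replicate block the interval was 0.09 to 0.42 and the adjusted p 0.308. Without VRTN replicate 1 the log2 fold change was 0.18, and the unadjusted limma p passed 0.05 without empty vector replicate 3 (0.0508), without replicate 1 in both groups (0.0508) and without replicate 3 in both groups (0.0564).

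The other 3 receptors had log2 fold changes between -0.067 and -0.036. NOTCH2, which is widely expressed and overlaps in function with NOTCH1, was at 9.01, 9.06 and 9.15 with VRTN and at 9.08, 9.23 and 9.11 without. The VRTN array of replicate 3 lay above 2 of the empty vector arrays, and the groups differed by a log2 fold change of -0.067 (95% interval -0.24 to 0.11, SE 0.075; adjusted p = 0.979 in limma). Probe set 7904702, shared with the NOTCH2NL genes, had a log2 fold change of -0.066 (SE 0.12), with differences of -0.060, -0.14 and 0.0049 in the same-numbered pairs. Taken as differences within each array, the changes of the 2 probe sets differed by -0.0012.

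NOTCH3, a receptor known from vascular smooth muscle, was at 7.37, 7.35 and 7.45 with VRTN and at 7.51, 7.40 and 7.37 in the controls, a log2 fold change of -0.037 (SE 0.071; limma adjusted p = 0.992). NOTCH4, known from endothelium, was at 6.73, 6.65 and 6.77 against 6.77, 6.81 and 6.69, with a log2 fold change of -0.036 (SE 0.070; limma adjusted p = 0.992). In both genes the groups overlapped and the same-numbered pairs went both ways. NOTCH3 turned positive without empty vector replicate 1 (0.0040) and NOTCH4 without replicate 2 in both groups (0.023).

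**Figure D2:**
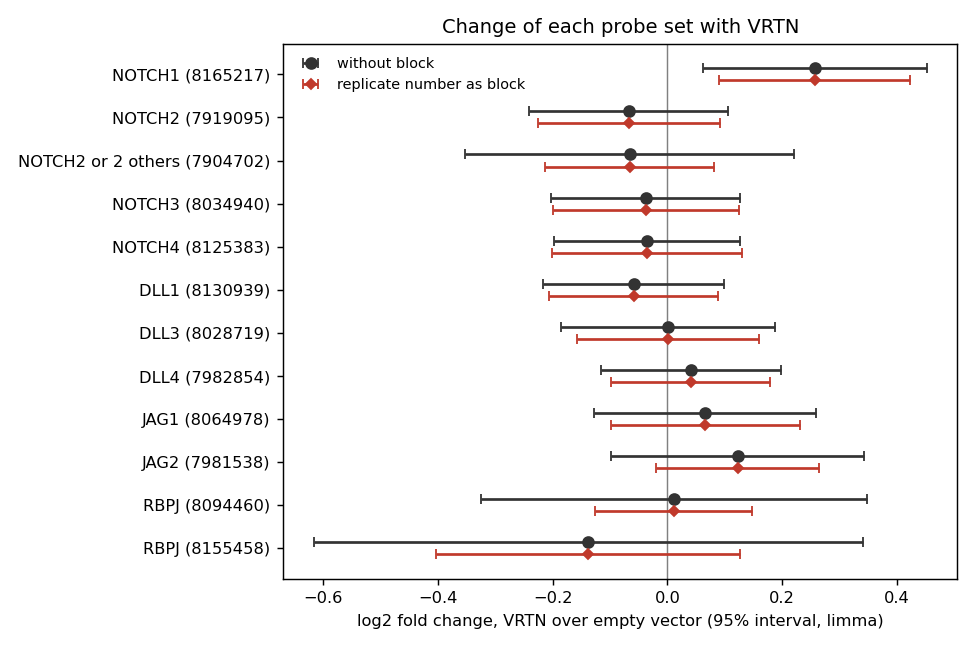
Log2 fold change of VRTN over empty vector for each of the 12 probe sets, with 95% intervals from limma without a block (circles) and with the replicate number as a block (diamonds). Only the NOTCH1 intervals lie clear of 0, at 0.06 to 0.45 and 0.09 to 0.42, and the block narrows those of both RBPJ probe sets, JAG2 and probe set 7904702 the most.

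The ligands also gave no call, 4 of 5 with a positive log2 fold change, against 48.0% of all probe sets. JAG2, a Jagged ligand needed for limb and palate development in the mouse, had the largest of them. It was at 7.94, 7.995 and 8.18 with VRTN and at 7.78, 7.94 and 8.03 without it. Each VRTN array lay above the empty vector array of the same number, by 0.16, 0.057 and 0.15, although the groups overlapped. This is a log2 fold change of 0.12 (95% interval -0.098 to 0.34, SE 0.095; adjusted p = 0.969 in limma), and with the replicate block the interval was -0.019 to 0.26 (adjusted p = 0.479).

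JAG1, the ligand altered in Alagille syndrome, was at 6.61, 6.87 and 6.83 with VRTN and at 6.68, 6.72 and 6.71 without. Replicate 1 was lower with VRTN and the other pairs were higher, and the log2 fold change was 0.066 (SE 0.083; limma adjusted p = 0.982). The VRTN arrays spread more, with an SD of 0.14 against 0.021.

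DLL1, the ligand that carries the oscillating signal of the mouse presomitic mesoderm, was at 6.91, 6.93 and 6.90 with VRTN and at 7.06, 6.94 and 6.92 without. It was the one ligand with a negative log2 fold change, -0.059 (SE 0.068; limma adjusted p = 0.979). Each of its same-numbered pairs was lower with VRTN, by -0.15, -0.011 and -0.019, so that most of the difference lay in replicate 1. NOTCH1 (higher), JAG2 (higher) and DLL1 (lower) were the 3 of 12 probe sets with the same sign in every pair, against 34.9% of all probe sets.

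DLL3, a divergent Delta-like protein that acts inside the cell and is altered in spondylocostal dysostosis, was at 6.52, 6.33 and 6.48 with VRTN and at 6.40, 6.39 and 6.54 without. The groups differed by a log2 fold change of 0.00081 (95% interval -0.19 to 0.19, SE 0.080), which took either sign as arrays were left out, from -0.059 to 0.056. DLL4, the endothelial tip cell ligand, was at 6.36, 6.29 and 6.42 against 6.33, 6.29 and 6.34, with a log2 fold change of 0.040 (SE 0.068; limma adjusted p = 0.991). The endothelial markers PECAM1, VWF, TEK and KDR, 4 of 6 on their list, were dimmer in every array than the median negative control, CDH5 in 5 arrays, and CLDN5 in none. Their summed log2 level was 30.95 to 31.56 with VRTN and 30.75 to 32.21 without.

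RBPJ, the protein through which all 4 receptors act on DNA, varied with the replicate number far more than with the plasmid. Probe set 8094460, which lists 2 RefSeq transcripts of RBPJ among 14 transcripts in its annotation, was at 9.72, 9.92 and 10.14 with VRTN and at 9.67, 9.93 and 10.14 without. The arrays numbered 1 were lowest and those numbered 3 highest in both groups, and the same-numbered arrays differed by 0.052, -0.010 and -0.0089. The log2 fold change was 0.011, and its SE went from 0.145 to 0.056 and its interval from -0.33 to 0.35 to -0.13 to 0.15 once the replicate number was a replicate block. Its sign was negative in 5 of 18 alternatives, some of which cannot move a log2 fold change. The lowest was -0.11, when empty vector replicate 1 was left out. That fit has no block, so the replicate numbers are then unbalanced between the groups, and -0.11 holds differences between replicates as well.

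The second RBPJ probe set, 8155458, lists 1 transcript, an assembled model and no RefSeq transcript of RBPJ, and RBPJ has processed pseudogenes, so what it measures is uncertain. It was at 6.04, 6.46 and 6.79 with VRTN and at 6.26, 6.82 and 6.62 without. Replicate 1 was again lowest in both groups, but the pairs went both ways (-0.22, -0.36 and 0.17). Together this gave a log2 fold change of -0.14 (95% interval -0.62 to 0.34, SE 0.21; adjusted p = 0.989 in limma). Without VRTN replicate 1 it was 0.059, in a fit without a block whose replicate numbers are unbalanced between the groups. The changes of the 2 RBPJ probe sets differed by 0.15, where the difference between them within an array had an SD of 0.17 over the VRTN arrays and 0.21 over the others. No test of that difference is given, since an exact permutation of 3 arrays against 3 cannot go below 0.1.

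The dependence on replicate number varied among the genes. The sum of squares of each probe set over the 6 arrays was divided into the parts that follow the plasmid, the replicate number and neither. The replicate number held 99.3% for RBPJ probe set 8094460, 91.5% for probe set 7904702, 78.1% for RBPJ probe set 8155458 and 69.7% for JAG2, where its median over all probe sets was 51.3%. Of all probe sets, 20.2% had a replicate share above 80%. It held 18.6% for NOTCH1 and 4.02% for NOTCH4. The plasmid held 71.1% for NOTCH1, 31.4% or less for each of the others, and 12.4% in the median of all probe sets. The replicate number held more than the plasmid for 10 of the 12, and for 75.1% of all probe sets. It has more levels than the plasmid and so takes the larger share on average even of noise alone. In a limma F test of the replicate number, added after the data were seen, 0 of the 12 passed adjustment over all probe sets (lowest adjusted p = 0.0700, for RBPJ probe set 8094460), against 1.03% of all, and 4 of the 12 (33.3%) were at an unadjusted p under 0.05, against 20.9%.

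**Figure D3:**
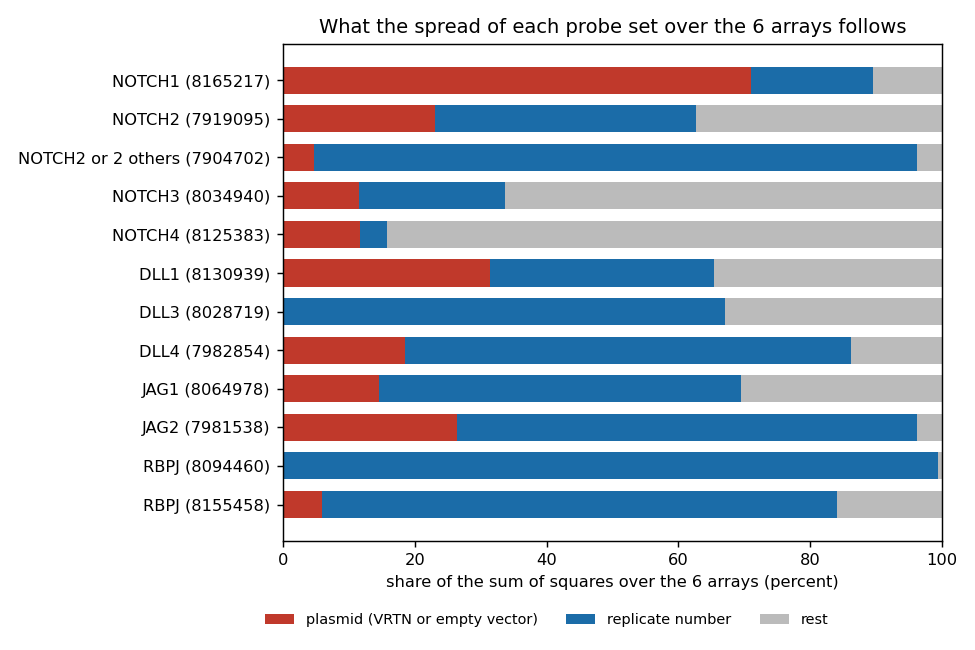
Share of the sum of squares over the 6 arrays, in percent, that follows the plasmid, the replicate number or neither, for each of the 12 probe sets. The plasmid takes the larger part for NOTCH1 (71.1%), and the replicate number nearly all of it for RBPJ probe set 8094460 (99.3%).

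Genes with a profile over the 6 arrays like that of a Notch gene were sought by the root-mean-square difference between log2 values centred on each gene's mean. Nearest to NOTCH1 were CD34, a sialomucin of blood and vascular progenitors (0.029), and SCN3A, a sodium channel subunit (0.036), where NOTCH1 itself varied by 0.15 about its mean. Nearest to RBPJ were LOC441081 (0.028) and LPCAT4, a lysophospholipid acyltransferase (0.028), where RBPJ varied by 0.18. Nearest to JAG2 were TNIP1 (0.023) and HIP1 (0.024), where JAG2 varied by 0.12. Nearest to the others were PRRC2B and SPATA24 (NOTCH2), COXFA4 and TMEM121 (NOTCH3), SLC27A2 and HOATZ (NOTCH4), DEGS2 and NKAPL (DLL1), ACYP1 and VPS28 (DLL3), ABCA3 and FBP2 (DLL4), and PLCXD2 and UTS2B (JAG1). With 6 arrays and 19460 probe sets of 1 symbol, such near matches are a description of these arrays.

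The rest of the pathway was read from 6 lists of 67 genes, of which 60 were measured. In limma 0 of the 60 were called, at a lowest adjusted p of 0.766, or of 0.235 with the replicate block (CNTN1 in both). At an unadjusted p under 0.05 there were 2 (3.33%, both higher) against 5.58% of all probe sets, and with the replicate block 11 (18.3%) against 11.5%. The groups did not overlap for 7 (11.7%) against 11.3%. The median log2 fold change over the 60 was 0.021, and single genes ran from -0.32 to 0.32. The 60 include KYAT1, which is on its list in error, and without it the median over 59 genes was 0.023.

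Proteases and partners that cut the receptors (8 of 9 measured) were near 0, with a median of 0.023. APH1B, a subunit of gamma-secretase, was higher in all 3 pairs at a log2 fold change of 0.19 (SE 0.12). With the replicate block its SE was 0.056, its unadjusted limma p 0.0144 and its adjusted p 0.331. FURIN, which cuts the receptor during its export, stood at 0.056 (SE 0.067). ADAM10, which sheds the outer part of the receptor once ligand is bound, was at -0.095 (SE 0.081) and APH1A at -0.012 (SE 0.075).

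Enzymes that put sugars on the EGF repeats (9 of 9 measured) had a median of -0.092, with 7 of 9 negative and 2 positive. Of all probe sets, 48.0% were positive. GXYLT1 (-0.22, SE 0.12) and GXYLT2 (-0.13, SE 0.081), which add xylose, were the lower genes with the smallest p. MFNG, a Fringe glycosyltransferase, was at 0.24 (SE 0.12) but lay above the negative control median in only 2 of 6 arrays, and EOGT, which adds N-acetylglucosamine, was at 0.16 (SE 0.14). With the replicate block, MFNG, GXYLT1 and EOGT, 3 of the 9 (33.3%), were at an unadjusted limma p under 0.05, against 11.5% of all probe sets. Their SEs were then 0.064, 0.065 and 0.055, and their adjusted p 0.314, 0.331 and 0.384. No member passed adjustment in limma with or without the block, so the list is described by its counts alone.

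Ubiquitin ligases and endocytic adaptors (15 of 16 measured) had a median of 0.023. DTX3, of the Deltex family, was at 0.18 (SE 0.087), AAK1, a kinase of clathrin adaptors, at 0.12 (SE 0.073), MIB1, the ligase that lets ligands pull, at -0.13 (SE 0.15), and EPN2, an epsin, at -0.093 (SE 0.069). DTX3 lay above the negative control median in 2 of 6 arrays.

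Coactivators (7 of 8 measured) had a median of 0.029. MAML2, a Mastermind protein of the nuclear Notch complex, had the most negative log2 fold change of the 60 genes, -0.32 (SE 0.18; limma adjusted p = 0.929). It was at 6.49, 6.77 and 7.07 with VRTN and at 6.77, 7.20 and 7.30 without, so that the groups overlapped while each pair was lower with VRTN. With the replicate block its unadjusted limma p was 0.0031 and its adjusted p 0.262. EP300, a histone acetyltransferase, was at 0.15 (SE 0.074), KAT2A, another, at 0.097 (SE 0.076), and SNW1 at -0.045 (SE 0.070).

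The list of corepressors of RBPJ (13 of 17 measured) had a median of 0.027. It holds KYAT1 (-0.056), a kynurenine aminotransferase and no corepressor, in error, and the other 12 had a median of 0.031. TLE2, a Groucho-type corepressor, was at 0.19 (SE 0.078), its 3 VRTN arrays (7.45, 7.48 and 7.57) above the 3 empty vector arrays (7.27, 7.43 and 7.24), and KDM5A, a histone demethylase that binds RBPJ, was at 0.14 (SE 0.071). TLE1 was at -0.087 (SE 0.070) and HDAC3 at -0.046 (SE 0.063).

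Other ligands and modulators (8 of 8 measured) had the highest median of the lists, 0.091. This median includes 2 genes, MFAP5 (0.16) and CNTN6 (-0.013), that were dimmer than the median negative control in every array. CNTN1, a contactin proposed as a Notch ligand in glia, had the largest log2 fold change of the 60 genes, 0.32 (SE 0.094; limma adjusted p = 0.766). It was at 7.38, 7.37 and 7.61 with VRTN and at 7.10, 7.05 and 7.26 without, with no overlap, and its adjusted p with the replicate block was 0.235. MFAP2, a microfibril protein, was at 0.20 (SE 0.088), DNER, an EGF-repeat protein above the negative control median in 2 of 6 arrays, at -0.029 (SE 0.083), and EGFL7, a secreted antagonist, at -0.019 (SE 0.087).

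**Figure D4:**
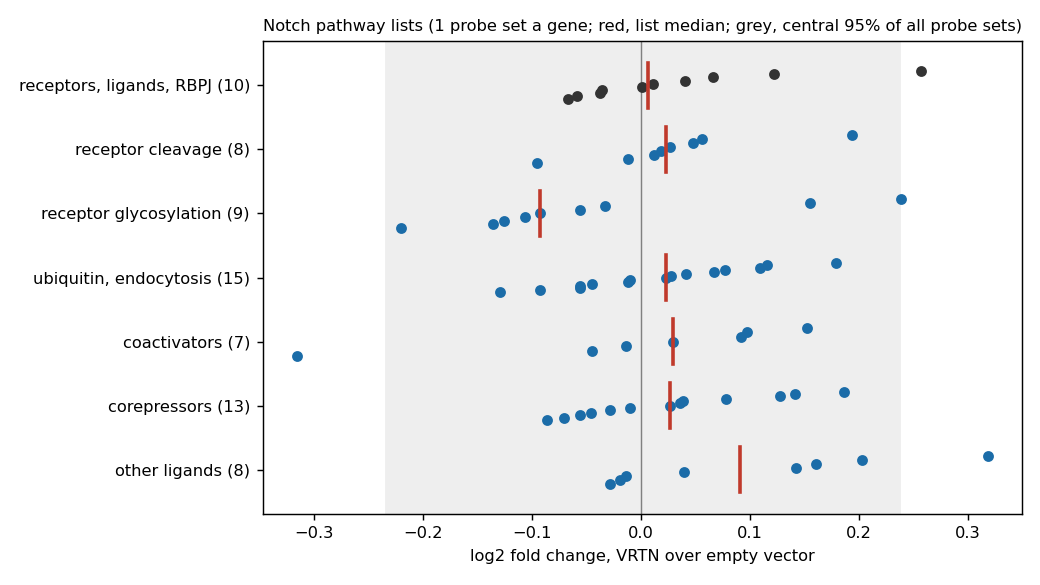
Log2 fold change of VRTN over empty vector for the genes of each list (number measured in brackets, 1 probe set a gene, points spread vertically by rank), with list medians in red and the central 95% of all probe sets (-0.23 to 0.24) in grey. Most points lie inside the grey band, MAML2 (-0.32) lies below it, NOTCH1 (0.26) and CNTN1 (0.32) lie above it, and MFNG (0.24) sits just past its upper edge.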

How the data were processed

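Total RNA (500 ng a sample) was labelled with biotin and hybridised to Affymetrix HuGene-1_0-st-v1 arrays, per the labels' protocols and the file headers. The authors deposited log2 signals from gene-level RMA at default settings, per the file headers, and the submitters' processing notes list Affymetrix Expression Console 1.0, with no role. RMA makes the arrays' distributions alike, which hides any shift common to most transcripts. Which genome build was used is not given in the sources used here. A second table holds the same values (0 of 33297 probe sets differed). Of these, 4114 control probe sets were left out and 29183 tested, and the platform annotation gives 1 symbol for 19460, several for 1752 and none for 7971 of these. Symbols were updated through RefSeq's GRCh38.p14 gene table.

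Groups were compared by lmFit and eBayes (limma 3.58.1, R 4.3.3), two-sided, with no filter on dim probe sets. Values of a gene with several probe sets come, in lists, from the one with the highest mean. The fit was tested on simulated data with independent noise in each array. That test does not show how the fit behaves where same-numbered arrays share deviations. Deviations from the group means were shared by same-numbered arrays (correlations across probe sets 0.535, 0.157 and 0.499), so the labels' replicate numbers were taken as pairing the arrays. Values printed are nevertheless from the fit without a block, as the main design, unless the replicate block is named beside them. The median SE over all probe sets was 0.088 without the block and 0.065 with it, so a printed SE can be wider than that of the paired fit. Summaries and plots used Python 3.11.15, pandas 2.3.3 and matplotlib 3.10.9.

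The named genes were all Notch genes above, VRTN, the 2 smallest p in each direction of each pathway list, and the 2 nearest profiles per gene. Members and lists were chosen with earlier results of these data known. Other settings tried were leaving out each array or each replicate number, a replicate block, array weights, limma without moderation or with a trended, robust prior, averaging the probe sets of a symbol, dropping the dimmest 40 percent, centring on medians, quantile normalization again, and the second table. The F test of the replicate number, the settings for VRTN and the pathway lists, and the blocked count of intervals were added after the data were seen. So were the corepressor and pathway medians without KYAT1.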

Additional observations from a re-analysis of the deposited data

How the results depend on the processing

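No Notch probe set and no gene of the pathway lists was called under any of the 18 alternatives, the replicate block included, and the adjusted p of the 12 Notch probe sets stayed between 0.308 and 1.00. Of their 215 values under alternatives, 196 kept their direction and 19 turned it, and 6 of the 12 (NOTCH1, NOTCH2 probe set 7919095, DLL1, DLL4, JAG1 and JAG2) turned under none. Many of the 196 could not turn. The second table, the replicate block, the trended, robust prior, no moderation and dropping dim probe sets leave a log2 fold change as it is. Averaging the probe sets of a symbol could move only RBPJ among these genes. NOTCH1 ran from 0.18 to 0.31 as arrays were left out. DLL3 turned with another quantile normalization (-0.0095), with arrays centred on their medians (-0.0045) and with array weights (-0.052), and RBPJ probe set 8094460 with array weights (-0.011) and with its probe sets averaged (-0.063). As single arrays or replicate numbers were left out, the log2 fold change ran from -0.059 to 0.056 for DLL3, from -0.11 to 0.13 for RBPJ probe set 8094460, from -0.32 to 0.059 for RBPJ probe set 8155458, from -0.17 to 0.036 for probe set 7904702, from -0.095 to 0.015 for NOTCH3 and from -0.095 to 0.023 for NOTCH4. APH1A turned with another quantile normalization (0.016) and ran from -0.057 to 0.040, DNER from -0.11 to 0.056 and EGFL7 from -0.10 to 0.040. Over all probe sets 4 were called, 2 with another quantile normalization, 14 with array weights, 0 without moderation, 8 with the replicate block, and 0 to 4 as arrays were left out. With fewer arrays the fits have fewer degrees of freedom, which bears on the calls and not on the log2 fold changes. Leaving out a single array, in fits without a block, also leaves the replicate numbers unbalanced between the groups. How far this moved the values above was not tested, nor was the cause of the other changes.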

Other observations

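Genes of other cell types in which Notch ligands are known to act gave no call in limma. Of 5 measured neural progenitor markers, SOX2, PAX6 and NES were brighter in each of the 6 arrays than the median negative control. DCX was so in none and the remaining marker in some but not all. The median log2 fold change of the 5 was -0.027, the value of that remaining marker. Their log2 fold changes went both ways, from -0.13 for SOX2 and -0.12 for DCX to 0.079 for NES and 0.13 for PAX6, and the groups did not overlap for 1 of the 5, PAX6, against 11.3% of all probe sets. Of 4 measured leukocyte markers, PTPRC and CD3E were dimmer than the median negative control in each array. CD14 (in 2 of 6) and ITGAM were brighter than it in some arrays but not in all. Of 5 measured HEK293 markers the groups did not overlap for 3, all lower with VRTN (LIN28B -0.22, NEFM -0.19 and NEFL -0.14), against 5.92% of all probe sets lower. VIM had a log2 fold change of -0.11 and PAX2 one of 0.14, and the lowest limma adjusted p of the 5 was 0.841. The summed log2 level of the 5 was 39.07 to 39.25 with VRTN and 39.43 to 39.86 without, and its part in the Notch values was not tested.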
